A study of Homo sapiens with 24 samples.

Results

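The ubiquitin-specific proteases (USP genes) are the largest family of deubiquitinating enzymes, and their summits of N6-methyladenosine (m6A) were followed across 4 lines made from HepG2, a widely used human liver cancer line. Members were all protein-coding RefSeq genes on the autosomes and chromosome X whose symbol is USP plus a number, with an optional X. This rule uses names only and gave 50 of 19974 protein-coding genes. The lines carried an integrated lentiviral cassette for EGFP (the control), for METTL14 (WT), for METTL14 (R298P) or for METTL14 (D312A). All 4 lines, the control included, had gone through viral transduction with Polybrene and selection in puromycin. Each line gave 3 biological replicates, and each replicate gave 1 library immunoprecipitated with an anti-m6A antibody and 1 input library, 24 samples in all. The state of the endogenous METTL14 gene, the promoter of the cassette and whether a line is 1 clone were not given in the sources used here. The lists of peak summits of the 12 immunoprecipitated libraries were used here.

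Ubiquitin is attached to proteins by a chain of E1, E2 and E3 enzymes, and deubiquitinases cut it off again, which can rescue a protein from the proteasome or end a signal. USPs share a catalytic domain of the cysteine protease type and differ in the domains around it, which set their place in the cell and their substrates. METTL14 holds the RNA for its partner METTL3, which transfers the methyl group, and the usual sequence around the methylated adenosine is GGAC. The title of the study puts the question of whether cancer mutations of METTL14 change which RNA sites are methylated.

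A summit is the highest point of a stretch where immunoprecipitated reads pile up. A USP gene was given every summit that lay inside its hg38 span, introns included, and numbers of summits were not divided by length. Summits of all 12 lists were also merged into regions wherever neighbours lay within 100 nt. Numbers of reads were not given in the sources used here; the depth of each list is therefore unknown and no counting interval was set.

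Sequence around a summit could be read only near annotated starts, from RefSeq windows of GRCh38.p14 that reach from 250 bases before to 50 bases after a start. Of the 50 USP genes, 39 had such a window, 53 windows in all. Summits lay in the windows of 6 USP genes. The sequences of the 3 windows where summits of at least 2 libraries lay closest together are shown because they give the bases under summits at or just before USP starts, and they were chosen after their values were seen. Capitals mark the bases from the first to the last summit inside the window.
USP39, chr2:85602616-85602645, plus strand: gcgccccgccgCCGCCGCAccctgctcggc
USP34, chr2:61471110-61471183, minus strand: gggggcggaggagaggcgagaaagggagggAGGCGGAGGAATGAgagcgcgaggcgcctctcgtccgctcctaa
USP14, chr18:158577-158606, plus strand: aagccgccgccaccaccgcgcctcCGcctc
The summits in the USP39 window came from 1 library of each line (EGFP 2, WT 1, R298P 2 and D312A 3) and lay 227 to 234 bases before the start, outside the USP39 span and in a stretch annotated as the protein-coding gene TMEM150A. The summits in the USP34 window came from R298P 1 and R298P 2 and lay 66 and 53 bases before the start, outside the USP34 span and where the long noncoding RNA gene USP34-DT is annotated. Lying outside the spans, the summits shown for USP39 and USP34 are not among the summits given to these genes below. The USP14 summits shown came from WT 1 and R298P 2, at 45 and 44 bases after the start, where the long noncoding RNA gene LOC112268408 is annotated too. The window ends there at 158606. The USP14 region, with a summit in 10 libraries, runs from 158601 to 158633, so the capitals mark only its first bases. The other 3 were USP54 (R298P 1 and D312A 3), USP35 (EGFP 3) and USP25 (D312A 3). Without strand in the lists, USP14 and LOC112268408 cannot be told apart at these bases.

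The letters GGAC and GGAT were searched in these windows on the gene's strand and on either strand. They share their first 3 letters and cannot start at the same base. GGAC stood on the gene's strand in 35 of the 53 USP windows (66.0%), beside 66.3% of all 35116 RefSeq windows of this length. On either strand it stood in 92.5% of USP windows and 87.4% of all. GGAT stood on the gene's strand in 27 USP windows (50.9%), beside 54.0% of all, and on either strand in 73.6% beside 76.5%. None of the 3 sequences shown holds GGAC or GGAT on the gene's strand. On the opposite strand, the USP34 sequence holds GGAC.

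The 12 lists held 155075 summits, from 8669 in D312A 2 to 15373 in EGFP 1. By their file names, the replicate 1 lists of every line form a set of their own, beside those of replicates 2 and 3. Summits in the spans of 10 hepatocyte marker genes differed widely between libraries of 1 line. The sums were 52, 10 and 82 in EGFP, 98, 34 and 31 in WT, 70, 15 and 20 in R298P, then 79, 79 and 6 in D312A. All 10 had a summit in at least 1 library, but ALB and APOB had none in EGFP 2 and D312A 3. APOB reached 39 in WT 1 and weighs heavily in the sums. HNF4A, the 1 marker with a summit in all 12 libraries, held 9 in EGFP 2 and 5 in D312A 3. Of the markers of other cells, 1 of 8 fibroblast genes (summed 0 to 2 per library), 4 of 8 blood cell genes (2 to 6) and 3 of 6 endothelial genes (0 to 2) had a summit, and COL1A1, PTPRC and VWF had none. D312A 2, the shortest list, and EGFP 2, R298P 2 and D312A 3, with the fewest hepatocyte marker summits, were each left out in turn below.

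Most USP genes carried m6A summits. Of the 50, 39 (78%) had a summit in at least 1 library, beside 51.5% of protein-coding genes, and 18 (36%) had one in all 12 libraries, beside 17.1%. A further 9 had a summit in 10 or 11 libraries, 4 in 5 to 9 and 8 in 1 to 4. The 11 without a summit were USP6, USP11, USP18, USP19, USP26, USP29, USP33, USP44, USP46, USP50 and USP51. A missing summit does not tell a transcript without m6A from one with little RNA, since expression was not analysed here. In these bulk libraries, fewer cells with a mark and less of it per cell cannot be told apart. Span length moved with this grouping: the median span was 89044 bases for the 18 genes found in all libraries and 35122 for the 11 without a summit. The part of length in the share of genes with a summit was not tested.

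In all, 787 summits lay in USP spans, 0.507% of all summits. The 5 genes with the most summits held 255 of them (32.4%). Of the 787, 38 lay in the span of more than 1 protein-coding gene, and 11 USP spans touch another protein-coding span.

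**Figure D1:**
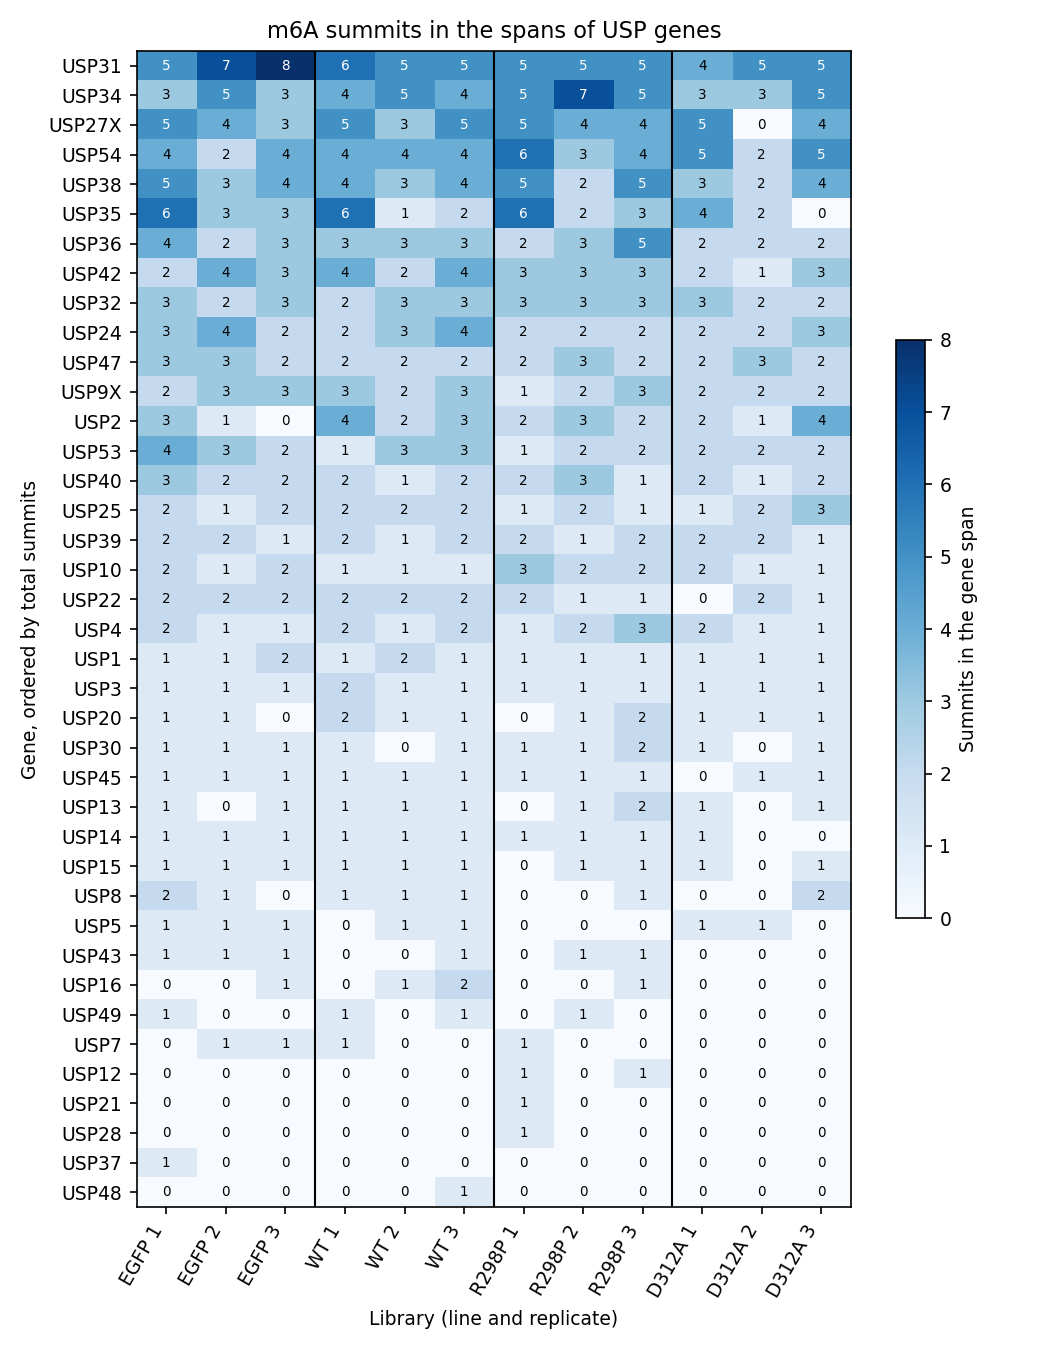
Number of m6A summits (colour and digits) in the span of each of the 39 USP genes with a summit (vertical axis, ordered by total) in each of the 12 libraries (horizontal axis, by line and replicate). The 18 genes with a summit in every library fill most of the upper rows, USP31 reaches 8 summits in EGFP 3, and USP27X is at 0 in D312A 2 alone.

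The 5 genes with the highest median number of summits were USP31, USP34, USP27X, USP54 and USP38. USP31, described as an inhibitor of NF-kappaB signalling, had a median of 5 over the 12 libraries. It held 5, 7 and 8 summits in the EGFP libraries, 6, 5 and 5 in WT, 5, 5 and 5 in R298P, and 4, 5 and 5 in D312A. The highest values were those of EGFP 2 and EGFP 3, but the lines overlapped. The mean was 6.67 ± 1.53 (SD, n = 3) in EGFP and 4.67 ± 0.577 in D312A, a difference of -2 that did not pass the exact permutation test (two-sided p = 0.3). Of its 9 regions, 3 had a summit in all 12 libraries, at chr16:23067575-23067611, chr16:23068626-23068652 and chr16:23069217-23069241.

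USP34, which acts on axin in Wnt signalling, had a median of 4.5. It held 3, 5 and 3 summits in EGFP, 4, 5 and 4 in WT, 5, 7 and 5 in R298P, and 3, 3 and 5 in D312A. R298P 2 was the highest library, and each R298P library was above its same-numbered WT library. The mean was 5.67 ± 1.15 (SD, n = 3) in R298P against 4.33 ± 0.577 in WT and 3.67 ± 1.15 in EGFP, and neither difference passed the exact permutation test (two-sided p = 0.3 for each). Its regions at chr2:61347962-61347979 and chr2:61188539-61188568 were found in all 12 libraries. The second of these also lies in the transcribed pseudogene AHSA2P.

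USP27X and USP38 show how single libraries can move a gene. USP27X, a histone H2B deubiquitinase whose span of 3075 bases is the shortest of the family, held 5, 4 and 3 summits in EGFP, 5, 3 and 5 in WT, 5, 4 and 4 in R298P, and 5, 0 and 4 in D312A. The 0 came from the shortest list. USP38, which acts in the innate immune response, held 5, 3 and 4 in EGFP, 4, 3 and 4 in WT, 5, 2 and 5 in R298P, and 3, 2 and 4 in D312A. Its regions chr4:143213763-143213797 and chr4:143214790-143214881 were found in all 12 libraries. USP54, long classed as lacking protease activity, held 4, 2 and 4 in EGFP, 4, 4 and 4 in WT, 6, 3 and 4 in R298P, and 5, 2 and 5 in D312A. One USP54 region, chr10:73575858-73575934, had a summit in 2 R298P libraries, 1 D312A library and no EGFP or WT library.

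The deposited lists give each summit a value taken to be a −log10 p or q value, the authors' own, which was used to rank summits within a list only. Ranked by the best summit of each gene, USP32, a membrane-associated protease of the endosome and Golgi, stood highest. Its best summit ranked within the top 0.680% to 10.3% of the list (median 4.08%) in the 12 libraries. The medians were 6.9% for USP31, 8.31% for USP24 and 8.52% for USP34. The best USP36 summit had a median rank of 45.1% and the best USP22 summit 57.7%, so a summit number and a rank did not always go together.

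Ordered by role, the genes that act on chromatin and DNA repair were mixed. Of 14, 11 had a summit, and 3 had one in all libraries. These were USP1, which takes ubiquitin off FANCD2 and PCNA, USP3, which acts on histone H2A, and the nucleolar USP36. USP22, the histone H2B deubiquitinase of the SAGA complex, held 2, 2 and 2 summits in EGFP and in WT, 2, 1 and 1 in R298P, and 0, 2 and 1 in D312A. USP7, which acts on MDM2 and p53, held 1 summit in each of 4 libraries. USP21, USP28 and USP48 held 1 in a single library.

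The 3 genes that handle free ubiquitin chains or act at the proteasome all had a summit, none of them in all 12 libraries. USP5, which takes apart unanchored chains, is described with the comparisons. USP14, a proteasome-bound protease, held 1 summit in all 9 EGFP, WT and R298P libraries and in D312A 1, and 0 in D312A 2 and D312A 3. USP13 held 0 to 2 per library.

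Of 9 genes of the endosome, Golgi and membrane traffic, 6 had a summit and USP10 and USP32 had one in all libraries. USP12, which works with WDR48 and WDR20, had 1 summit in R298P 1 and R298P 3 and none elsewhere. USP2 held 3, 1 and 0 summits in EGFP and 4, 2 and 3 in WT. Of the 2 genes anchored in organelles, the mitochondrial USP30 held 0 to 2 summits and the USP19 of the endoplasmic reticulum none.

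The 6 genes placed in growth factor, TGF-beta and Wnt signalling all had a summit, and 5 had one in all 12 libraries: USP4, USP9X, USP24, USP34 and USP47. USP15, which acts on the TGF-beta receptor complex, held 0 or 1. Of 3 interferon and innate immune genes found, USP25 and USP38 had summits in all libraries, and USP18, which removes the ubiquitin-like ISG15, had none. USP39, a splicing factor without protease activity, and USP53 and USP54, all had summits in all libraries. USP53 held 4, 3 and 2 summits in EGFP, 1, 3 and 3 in WT, 1, 2 and 2 in R298P, and 2, 2 and 2 in D312A. The remaining genes, in none of these lists, included USP35 (0 to 6 per library, part of them in regions shared with GAB2), USP42 (1 to 4), USP40 (1 to 3), USP45 (0 or 1) and USP37 (1 summit in EGFP 1).

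USP regions ranged from those found in 1 library to those found in all 12. Of 138 regions in USP spans, 40 (29.0%) had a summit in at least 10 libraries, beside 18.3% of all 34313 regions. In 1 library there were 30 (21.7%), beside 35.8%, and in 2 libraries 24 (17.4%), beside 12.2%. USP regions lie in gene spans by definition, while all regions were taken wherever they lay. Regions found in all 12 libraries made up 10.9% (15) beside 9.91%. These lay in USP1, USP3, USP4, USP9X, USP31, USP32, USP34, USP38, USP53 and USP54. The USP3 region, chr15:63591241-63591260, also lies in the antisense gene USP3-AS1. Of 112 regions in the 32 genes with a known strand, 33.0% lay in the last 10% of the span and 11.6% in the first 10%, beside 33.3% and 16.3% of 25571 regions of all protein-coding genes.

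**Figure D2:**
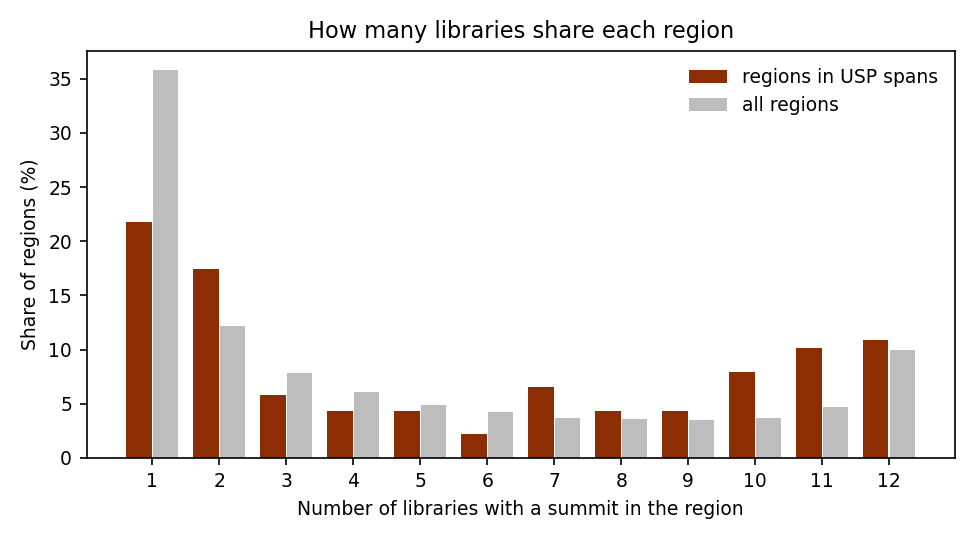
Share of regions (%, vertical axis) by the number of libraries with a summit in the region (horizontal axis), for the 138 regions in USP spans and for all 34313 regions. USP regions are at 21.7% against 35.8% for 1 library and at 17.4% against 12.2% for 2 libraries. They are also above all regions for 10, 11 and 12 libraries.

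Per library, USP spans held 79, 66 and 65 summits in EGFP, 74, 60 and 75 in WT, 68, 65 and 73 in R298P, and 58, 43 and 61 in D312A. The mean was 70 ± 7.81 (SD, n = 3) in EGFP and 69.7 ± 8.39 in WT, 68.7 ± 4.04 in R298P and 54 ± 9.64 in D312A. USP genes with a summit numbered 33, 31 and 30 in EGFP, 31, 30 and 34 in WT, 29, 30 and 32 in R298P, and 27, 24 and 27 in D312A. All 3 D312A libraries were below the other 9. With lists of equal length, cut to their 8669 best summits, D312A had 26, 24 and 26 genes and the lowest other library 23, so this order ended.

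As a share of the list, USP summits made up 0.514%, 0.476% and 0.513% in EGFP, 0.5%, 0.475% and 0.496% in WT, 0.569%, 0.561% and 0.532% in R298P, and 0.469%, 0.496% and 0.494% in D312A. The mean was 0.554% ± 0.0193 (SD, n = 3) in R298P, above 0.501% ± 0.0216 in EGFP, 0.491% ± 0.0133 in WT and 0.486% ± 0.0148 in D312A. All 3 R298P libraries were above the other 9. With lists of equal length they ran from 0.565% to 0.634% and overlapped the others, which ran from 0.496% to 0.611%. They overlapped too with values of at least 10 and with the best 5000 summits of each list.

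**Figure D3:**
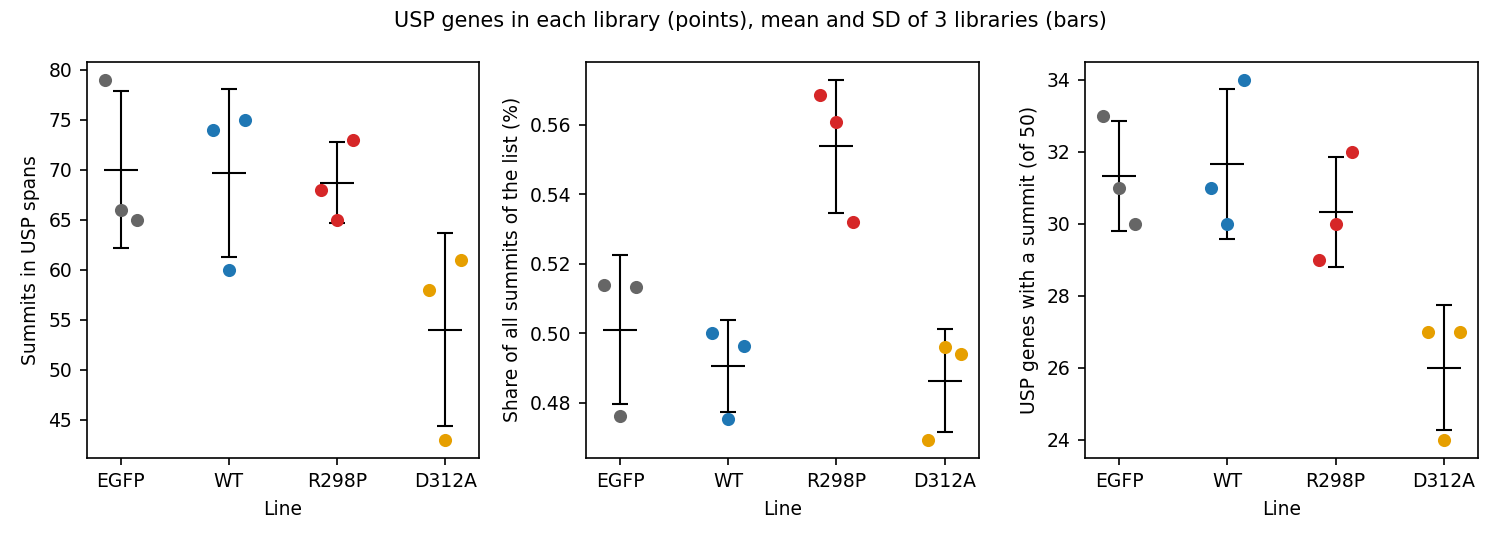
USP summits per library (left), their share of all summits of the list in % (middle) and USP genes with a summit out of 50 (right), by line; points are libraries and bars the mean and SD of 3 libraries. In the middle panel R298P lies at 0.532% to 0.569%, above the other lines, and in the right panel D312A lies at 24 to 27 genes, below them.

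R298P was compared with WT because both lines carry a METTL14 cassette, with and without the substitution. The METTL14 level in each line was not measured here. USP10, which binds G3BP1 and deubiquitinates p53, held more summits in R298P. It had 1, 1 and 1 summits in WT and 3, 2 and 2 in R298P, with 2, 1 and 2 in EGFP and 2, 1 and 1 in D312A. No R298P library overlapped WT, whereas R298P overlapped EGFP and D312A. The mean was 2.33 ± 0.577 (SD, n = 3) in R298P and 1 ± 0 in WT (two-sided exact permutation p = 0.1, the smallest that the 20 assignments of 3 and 3 libraries allow). The 2 shared USP10 sites lie at chr16:84745128-84745132 and chr16:84745424-84745431. The first had a summit in 3 EGFP, 2 WT, 3 R298P and 3 D312A libraries, and the second in 2, 1, 3 and 1. WT 1 held only the second and WT 2 and WT 3 only the first, while each R298P library held both.

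USP10 was the only USP gene whose summit numbers did not overlap between R298P and WT, 1 of the 39 with a summit (2.56%), beside 3.64% of the 10277 protein-coding genes with a summit (374, of which 307 were lower in R298P and 67, or 0.652%, higher like USP10). By mean summit number, 15 USP genes were higher in R298P, 17 lower and 7 equal, 38.5% higher and 43.6% lower beside 26.1% and 44.6% of all genes. One of the 138 USP regions (0.725%) was gained, that is found in every R298P library and in no WT library, beside 0.571% of all regions gained and 1.96% gained or lost. It lies in USP31 at chr16:23064688-23064763 and was also present in 2 EGFP libraries and 1 D312A library. WT had summits in 2 libraries at chr16:23064911-23064917, next to it. With summits merged within 200 nt no USP region was gained or lost, beside 1.74% of all regions. With values of at least 10 or lists of equal length 1 USP25 region was lost and the USP31 region was not called. The lost region was 0.877% or 0.909% of USP regions, beside 1.66% or 1.15% of all regions lost. USP25, which acts in innate immune signalling, held 2, 1 and 2 summits in EGFP, 2, 2 and 2 in WT, 1, 2 and 1 in R298P, and 1, 2 and 3 in D312A with all summits, and its region at chr21:15878416-15878474 was present in 3 WT libraries and 1 R298P library. Without R298P 2, 4 USP genes did not overlap, USP10, USP12 and USP38 higher and USP25 lower (10.3%, beside 6.10% of all genes), and 6 USP regions were gained or lost (4.35%, beside 3.42% of all regions). Treating same-numbered replicates as pairs, USP10 and USP34 were higher in R298P in all 3 pairs, 2 genes in place of 1. The share over all genes was not computed for pairs.

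**Figure D4:**
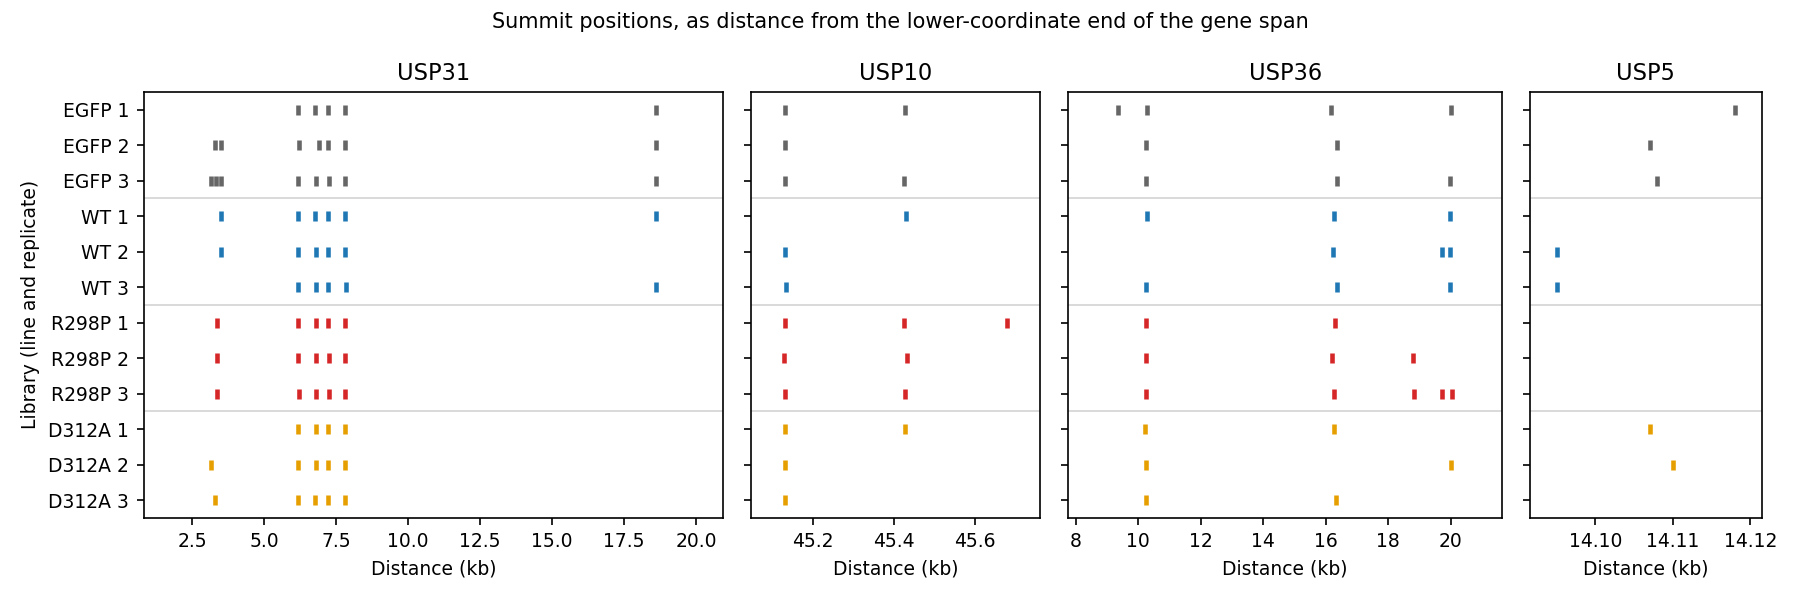
Summit positions (ticks) along part of the spans of USP31, USP10, USP36 and USP5 in the 12 libraries (vertical axis, by line), as the distance from the lower-coordinate end of the span in kb (horizontal axis, a different range in each panel). Each R298P library has both main USP10 sites where each WT library has 1, and USP5 has no tick in the R298P libraries.

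Of the 138 USP regions, 4 (2.90%) had a summit in 2 R298P libraries and in none of the other 9, beside 435 of all regions (1.27%) found in 2 or 3 R298P libraries only. They lie in USP12 (chr13:27069139-27069140), USP20 (chr9:129881283-129881294), USP34 (chr2:61188408-61188410, also in AHSA2P) and USP36 (chr17:78806194-78806217). In USP36 these 2 summits ranked at 92.3% and 97.1% of their lists, among the weakest. Counted the same way, as a summit in 2 or 3 libraries of the line and in none of the other 9, there was 1 USP region for WT (0.725%, beside 0.755% of all regions), in USP27X (chrX:49880096-49880187). There was also 1 for EGFP (beside 0.816%), in USP35 (chr11:78226649-78226653, also in GAB2), and there was 0 for D312A (beside 0.189%).

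Against EGFP, R298P lacked the USP5 summit. USP5 held 1, 1 and 1 summits in EGFP, 0, 1 and 1 in WT, 0, 0 and 0 in R298P, and 1, 1 and 0 in D312A. R298P did not overlap EGFP but did overlap WT and D312A. The mean was 0 ± 0 (SD, n = 3) against 1 ± 0 in EGFP (two-sided exact permutation p = 0.1, the smallest possible). This was the only USP gene of 39 that did not overlap (2.56%, beside 3.52% of genes, 2.81% of them lower in R298P like USP5), and 2 USP regions were lost (1.45%, beside 1.27% of regions lost and 1.91% gained or lost). One was the USP5 site at chr12:6866245-6866268, whose summits ranked at 35.8% to 82.2% of their lists. The other was chr16:23080026-23080031 in USP31, present in 3 EGFP and 2 WT libraries and in no R298P or D312A library. With values of at least 10, with lists of equal length and with the best 5000 summits, 0 USP genes did not overlap. The shares over all genes were then 3.81%, 3.31% and 2.85%. Without EGFP 2 or without R298P 2, the count was 2 (5.13%), with USP34 or USP12 added as higher, beside 6.03% or 6.23% of all genes.

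Against WT, D312A held fewer summits in USP36, a nucleolar protease that stabilises MYC. USP36 had 3, 3 and 3 summits in WT and 2, 2 and 2 in D312A, with 4, 2 and 3 in EGFP and 2, 3 and 5 in R298P. WT and D312A did not overlap, and both lay within the range of EGFP. The mean was 2 ± 0 (SD, n = 3) in D312A and 3 ± 0 in WT (two-sided exact permutation p = 0.1, the smallest possible). USP36 was 1 of 39 USP genes (2.56%) beside 3.09% of genes, 3.02% of them lower in D312A like USP36, and 0 of the 138 USP regions were gained or lost, beside 1.08% of regions. The largest step between these lines was at chr17:78807360-78807436, present in 3 WT libraries and 1 D312A library. With values of at least 10, USP25 was the 1 gene called in place of USP36 (2.78%, beside 3.58% of all genes). With lists of equal length 0 USP genes did not overlap, beside 1.69% of all genes. Without D312A 2 the count was 3 genes (7.69%, beside 4.80% of all genes) and 2 regions (1.45%, beside 1.87% of all regions). Without D312A 3 it was also 3 and 2, beside 6.98% and 2.39%, USP36 being among the genes in each case.

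By mean summit number, 27 of 39 USP genes (69.2%) were lower in D312A than in WT and 2 were higher, beside 51.6% and 16.8% of all genes. Against EGFP 26 (66.7%) were lower and 4 higher, beside 50.6% and 18.3%. These comparisons share the D312A libraries, whose lists were on average the shortest. Without D312A 2, 24 were lower than in WT and 23 than in EGFP, beside 48.4% and 48.2% of all genes. Without D312A 3, 30 and 28 were lower, beside 57.7% and 57.0%. With lists of equal length, of 35 USP genes with a summit, 12 were lower and 10 higher than in WT, beside 32.6% and 32.7% of all genes. Against EGFP, 15 were then lower and 7 higher, beside 33.9% and 33.2%.

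Against EGFP, D312A lacked summits in USP43. USP43 held 1, 1 and 1 summits in EGFP, 0, 0 and 1 in WT, 0, 1 and 1 in R298P, and 0, 0 and 0 in D312A. The EGFP summits lay at chr17:9728368 in 1 library and at chr17:9728565-9728617 in 2, so no USP43 region was called lost. The summit at the first ranked at 63.8% of its list. Those at the second, in any line, ranked at 42.1% to 96.4%. The D312A and EGFP libraries did not overlap (two-sided exact permutation p = 0.1, the smallest possible). It was 1 of 39 USP genes (2.56%) beside 2.93% of genes, 2.79% of them lower in D312A like USP43, and 1 USP region (0.725%), the USP31 region at chr16:23080026-23080031, was lost, beside 0.898% of regions lost and 1.03% gained or lost. With lists of equal length, 0 USP genes did not overlap, beside 1.64% of all genes. There, 1 USP31 region was lost and 1 USP34 region was gained (1.82% of 110 USP regions, beside 0.824% of all regions). With summits merged within 200 nt, 1 USP31 and 1 USP43 region were lost (1.79%, beside 0.892% of all regions lost). Without D312A 2 or without EGFP 2 the count was 3 or 2 genes (7.69% or 5.13%), USP43 among them, beside 4.75% or 5.45% of all genes.

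Between the WT METTL14 line and EGFP, 0 of 39 USP genes were separated, beside 1.29% of genes, and 0 of 138 USP regions were gained or lost, beside 0.545% of regions. By mean summit number 13 (33.3%) were higher in WT, 12 (30.8%) lower and 14 equal, beside 33.8% higher and 32.4% lower of all genes. The lowest p among USP genes was 0.3 in the exact permutation test (two-sided), while 3 against 3 libraries cannot give a p below 0.1. USP2 held 3, 1 and 0 summits in EGFP and 4, 2 and 3 in WT, higher in each same-numbered pair but overlapping. Without EGFP 2, 2 USP genes did not overlap (5.13%, beside 3.44% of all genes), USP34 higher and USP10 lower in WT, and 1 region in USP34 was gained (0.725%, beside 1.40% of all regions gained or lost).

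**Figure D5:**
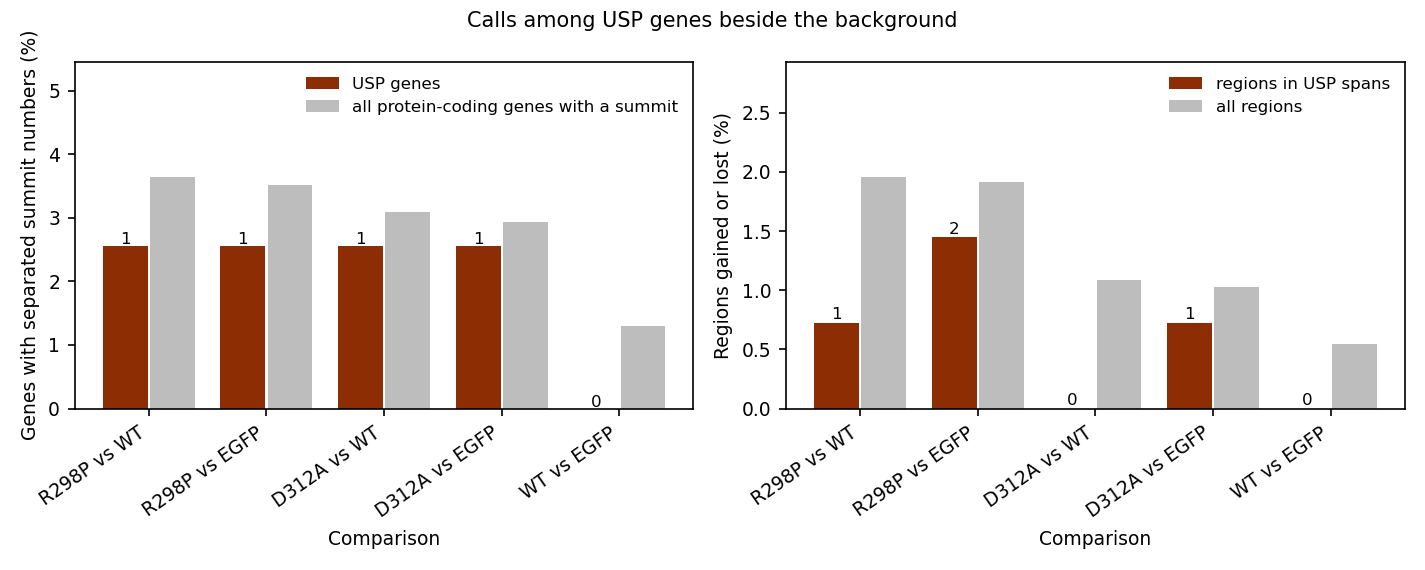
Share (%, vertical axes) of USP genes whose summit numbers do not overlap between 2 lines (left) and of regions in USP spans gained or lost (right), with the number above each bar, beside the share over all protein-coding genes with a summit and over all regions, for 5 comparisons (horizontal axes). In each comparison the USP bar lies below the grey bar, at 2.56% or 0% on the left.

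Lists of genes that work with USPs were set beside the same background between R298P and WT, where 3.64% of genes with a summit did not overlap and 5.89% had a region gained or lost in their span. Of 35 other deubiquitinases, 28 had a summit, 1 held more summits in R298P and 1 fewer without overlap, and 2 had a lost region (7.14% for each count). The lost regions lay in MINDY2 (chr15:58772005-58772200) and ZUP1 (chr6:116666789-116666819), each present in 3 WT and 0 R298P libraries. All 10 USP cofactors had a summit, 1 held more in R298P (10%), and WDR20, the partner of USP12 and USP46, gained a region (10%) at chr14:102208953-102209043. Of 32 ubiquitin, E1 and E2 genes, 24 had a summit, none was separated, and the E2 enzyme gene UBE2R2 gained a region (4.17%, chr9:33917198-33917225). These are counts of 0 to 2 genes, and no list is called apart from the background.

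Of 14 known substrates of USPs, 11 had a summit, 1 of these did not overlap (9.09%) and 2 had a region gained or lost (18.2%). MDM4, the p53 inhibitor that USP2 deubiquitinates, had 1 summit in each of the 9 EGFP, WT and D312A libraries and 2, 2 and 3 in R298P. Its region at chr1:204549190-204549204 had a summit in 3 R298P libraries and in none of the other 9. MYC, which USP28 and USP36 stabilise, lost a region that was present in 2 EGFP, 3 WT, 0 R298P and 1 D312A libraries. Among the 10 hepatocyte markers, TF lost 2 regions in the same comparison (10% of genes, beside 5.89%). HNF4A held fewer summits without overlap (10%, beside 3.64%). TF differed widely within lines, with 15, 1 and 13 summits in EGFP, 16, 6 and 8 in WT, 9, 3 and 4 in R298P, and 14, 10 and 0 in D312A.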

How the data were processed

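The deposited files used were 12 lists of summits, 1 per immunoprecipitated library, each called on its own library. Per the submitters' processing notes, the authors used STAR 2.7.9a, MACS2 2.1.2, bedtools 2.17.0, HOMER 4.9, edgeR, featureCounts, Picard, FastQC 0.11.2 and Trim Galore 0.4.4, on build hg38; for these, roles and settings were not given in the sources used here. Every deposited summit value was taken to be a −log10 p or q value (which of them is not given), and the lowest value of a list lay between 5.00 and 5.03.

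Python 3.11.15 with numpy 2.4.6 and pandas 2.3.3 was used, and figures were drawn with matplotlib 3.10.9. Groups and replicate numbers came from sample titles. A summit counted for every USP span of RefSeq (GRCh38.p14) that holds it. Summit numbers were called separated when the 3 libraries of both lines did not overlap, and a region gained or lost when present in 3 of 3 libraries of 1 line and 0 of 3 of the other. Single genes were tested with the two-sided exact permutation test over 20 assignments. Span counts were checked by a direct recount on the lists. The calls were checked on simulated data, where changes in summit number were far larger than those called here. That check therefore does not bear on calls of this size. Because p-values come from 3 libraries a line, they measure only the spread between these replicates. USP genes with separated numbers or a called region in R298P or D312A against WT, and the 5 with the highest medians, were named in full; of other lists, genes with a region gained or lost in R298P against WT. Members and lists were chosen with earlier results of these data known.

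The deposited expression table names 42677 genes by identifiers of which 0 could be paired with a symbol, and 18 of its columns per library are tied to no label, so expression was not analysed here. Same-numbered R298P and WT libraries deviated together (correlations of 0.481, 0.189 and 0.218 over genes), and every other comparison had a pair under 0.1. For D312A and WT the correlations were 0.392, -0.0129 and 0.373, of which 2 are above the lower R298P and WT values. For R298P and EGFP they were 0.0976, 0.234 and -0.160. This check does not show that the libraries were made as pairs. The main calls and the exact permutation tests took no account of pairs, and replicates as pairs were an alternative only. Alternatives were a minimum value of 10, lists of equal length, the 5000 best summits, merging within 50 or 200 nt, single-gene summits, each replicate left out and replicates as pairs. Single libraries left out (D312A 2, EGFP 2, R298P 2, D312A 3) and shares with lists of equal length were chosen after the data were examined.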

Additional observations from a re-analysis of the deposited data

How the results depend on the processing

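Of 137 values under alternatives, 43 stayed within 1.5 times (counts) or 1 SD (shares) of the reported value and 94 moved. The counts are 0 to 2, where 1 gene makes a move. A share without 1 of 3 replicates cannot move by 1 SD of the same 3, so these shares could only stay. Against the 1, 1, 1, 1 and 0 USP genes separated in R298P vs WT, R298P vs EGFP, D312A vs WT, D312A vs EGFP and WT vs EGFP, a minimum value of 10 gave 2, 0, 1, 0 and 0, lists of equal length 2, 0, 0, 0 and 0, the best 5000 summits 1, 0, 0, 0 and 0, and replicates 2 and 3 alone 5, 6, 5, 6 and 4. Over all genes with a summit, a minimum value of 10 separated 3.82%, 3.81%, 3.58%, 2.79% and 1.40%. The shares were 3.22%, 3.31%, 1.69%, 1.64% and 1.15% with lists of equal length. With the best 5000 summits they were 2.34%, 2.85%, 1.27%, 1.15% and 0.946%. Leaving out replicates or single libraries gave 2 to 8, 2 to 6, 3 to 6, 1 to 6 and 2 to 4 USP genes, where fewer libraries overlap less by construction. Replicates 2 and 3 alone are the same libraries as replicate 1 left out, so these counts enter the 137 values under both names. With the replicate block (the same direction in all 3 pairs) the counts were 2, 2, 2, 3 and 1. In R298P vs WT, the only comparison without a pair under 0.1 in the check, USP10 and USP34 were higher. No share over all genes or regions was computed for the replicate block or for a replicate left out in both lines. For R298P vs WT, USP10 was separated under each of these settings, and higher in R298P. For USP regions gained or lost (1, 2, 0, 1 and 0), a minimum value of 10 gave 1, 1, 1, 1 and 0, lists of equal length 1, 1, 0, 2 and 0, the best 5000 summits 0 in each, merging within 50 nt 1, 2, 1, 2 and 0, within 200 nt 0, 2, 0, 2 and 1, replicates 2 and 3 alone 8, 10, 3, 6 and 3, and leaving out replicates or single libraries 6 to 10, 3 to 10, 2 to 7, 1 to 6 and 1 to 4. Over all regions, a minimum value of 10 gave 2.41%, 2.29%, 1.34%, 1.11% and 0.569% gained or lost. Lists of equal length gave 2.30%, 2.25%, 0.915%, 0.824% and 0.510%, and the best 5000 summits 2.09%, 2.40%, 0.706%, 0.640% and 0.603%. Merging within 50 nt gave 2.00%, 2.01%, 0.982%, 0.979% and 0.519%, and within 200 nt 1.74%, 1.60%, 1.05%, 0.994% and 0.500%. Shares of summits in EGFP, WT, R298P and D312A were 0.556%, 0.515%, 0.582% and 0.533% with a minimum value of 10, 0.577%, 0.558%, 0.596% and 0.538% with lists of equal length, and 0.613%, 0.607%, 0.673% and 0.607% with the best 5000 summits; without 1 replicate they ran from 0.495% to 0.514%, 0.486% to 0.498%, 0.546% to 0.565% and 0.482% to 0.495%. The cause of these moves was not tested. The alternatives on the expression table were not run. Depth is unknown, and a site just under the calling threshold in 1 library reads as absent.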

Other observations

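Genes named after a USP gene but outside the numbered family also carried summits. USPL1, a SUMO protease despite its name, held 5, 4 and 3 summits in EGFP, 5, 3 and 4 in WT, 1, 6 and 6 in R298P, and 3, 2 and 5 in D312A, 47 in all. USP6NL, a GTPase-activating protein related to the non-catalytic part of USP6, held 35 summits over the 12 libraries, 2 to 4 in each. Of the other protein-coding genes of this kind, which include the USP17-like genes, none had a summit, so 2 of 27 did. None of 17 pseudogenes and 5 transcribed pseudogenes had one.

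Among long noncoding RNA genes named after a USP neighbour, 7 of 11 had a summit. USP3-AS1 had one in all 12 libraries, in a span shared with USP3. USP27X-DT, which starts beside USP27X and shares no other annotated span, had 1 summit in 10 libraries and none in R298P 3 and D312A 2. USP2-AS1, which overlaps THY1, had 1 summit in 9 libraries.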
